A study of Homo sapiens with 6 samples.

Results

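Glycolysis, lactate and pentose phosphate genes were followed in A549 cells, a human lung adenocarcinoma line, after knockdown of C19orf12. The set holds 32 genes, chosen by name along the route from glucose uptake to lactate export and through the pentose phosphate branch. They were chosen with earlier results of these data known. All 32 were found by Entrez gene ID among the 20824 genes listed in any file, and all 32 passed the filter on low counts that left 14812 genes for testing. Poly(A) RNA was sequenced from cells with an shRNA against C19orf12 (3 libraries) and from cells with a scrambled shRNA, which served as the wild-type control (3 libraries). Both groups thus carry an shRNA, and the 3 knockdown titles share the name shC19orf12-1. The labels do not say whether libraries of a group came from separate cultures, so a p-value reflects library-to-library spread only, which may be technical. C19orf12 encodes a mitochondrial and endoplasmic reticulum membrane protein known for mutations in an inherited neurodegeneration in which iron builds up in the brain.

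Glycolysis splits glucose into pyruvate in the cytosol, and lactate dehydrogenase turns pyruvate into lactate while regenerating the NAD+ that the pathway needs. Monocarboxylate transporters then carry lactate across the plasma membrane. The pentose phosphate pathway branches off at glucose 6-phosphate and supplies NADPH and ribose phosphate. A549 cells carry a KEAP1 mutation that keeps the transcription factor NRF2 active, and NRF2 is known to raise several pentose phosphate enzymes. The transcription factor HIF-1 is known to raise most glycolytic enzymes in low oxygen. Most steps are served by isozymes from separate genes that differ in tissue and regulation.

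Total estimated counts ran from 10229890 to 10647587 a library. Scramble replicate 3 stood apart. Across genes its log2 CPM (a gene's count relative to the library total, scaled by TMM) correlated at 0.9524 and 0.9532 with scramble replicates 1 and 2, against 0.9909 between these and 0.9585 to 0.9602 between them and the knockdown libraries. These correlations are across genes, which are not independent replicates. Values are therefore given with all 6 libraries and, where leaving out scramble replicate 3 changed the call, the sign or the size, also without it. Common dispersion corresponded to a coefficient of variation of 18.9% with all 6 libraries and 2.97% without that library, so small differences passed the test there. Of 8 A549 and epithelial markers, KRT8 averaged 4615 CPM in knockdown and 1331 CPM in scramble cells and ALDH1A1 6362 and 5703 CPM, whereas EPCAM (2.36 and 1.12 CPM) and KRT19 (2.26 and 0.192 CPM) were barely detected. The list summed to 24335 to 24781 CPM in knockdown libraries and 16139 to 17691 CPM in scramble libraries. Of 8 markers of other cell types, CD3E was in no file, DCN was at 0 in knockdown libraries and CDH5 and LUM at 0 in scramble libraries, and the list summed to 28.7 to 31.6 CPM in knockdown libraries and 41.8 to 51.3 CPM in scramble libraries, most of it COL1A1 (24.4 and 41.1 CPM on average). By edgeR on all 6 libraries KRT8, KRT18 and KRT19 were called higher (log2 fold change 1.79, 1.31 and 3.5, adjusted p = 0.000246, 0.00135 and 0.00563). COL1A1 was called lower (-0.75, adjusted p = 0.0191), and no other marker tested was called. Of all genes tested, 5.89% were called higher and 5.64% lower. The part of these markers in any result was not tested.

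C19orf12 itself was lower in each knockdown library, with 24.2, 26.4 and 25.2 CPM against 42.5, 41.1 and 63.3 CPM in scramble replicates 1, 2 and 3 (log2 fold change -0.95, SE 0.20, adjusted p = 0.015 by edgeR). The knockdown libraries thus held 51.6% of the scramble level, or 60.4% of that in scramble replicates 1 and 2. The call did not pass without knockdown replicate 1, 2 or 3 (adjusted p = 0.0908, 0.0755 and 0.0879).

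The lactate dehydrogenase genes LDHA and LDHB, the lactate exporter gene SLC16A3, and the lower glycolytic genes PGK1, PGAM1 and PKM rose in knockdown cells, and the hexokinase gene HK2 and the glycolytic regulator gene PFKFB3 fell. The other 24 members did not pass the test. By edgeR's quasi-likelihood test 6 of 32 members (18.8%) were higher, where 5.89% of all genes tested were called higher, and 2 of 32 (6.25%) were lower, where 5.64% were. The members were chosen with earlier results of these data known, so such shares, here and below, are no independent test of the set. An unadjusted p under 0.05 was found for 10 members with a positive and 3 with a negative fold change. The share of all genes under that limit was not counted, so nothing particular to the members is read from these counts. All 8 calls held without scramble replicate 3. With any 1 of the other 5 libraries left out instead, 3 members were higher, LDHA, LDHB and SLC16A3, and 0 to 2 were lower. Without scramble replicate 3, 19 members (59.4%) were called higher, beside 25.7% of all genes, and 6 (18.8%) were called lower, beside 23.8%. Of these, 11 members (34.4%) were at least 1.5-fold higher, beside 8.80% of all genes, and 2 (6.25%) at least 1.5-fold lower, beside 7.55%. The median log2 fold change of the members was 0.18 on all 6 libraries and 0.36 on the 5 without scramble replicate 3, and that of all genes was 0.018 and 0.003. RNA was taken from whole cultures, so a change in the number of cells that express a gene and a change per cell cannot be told apart.

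**Figure D1:**
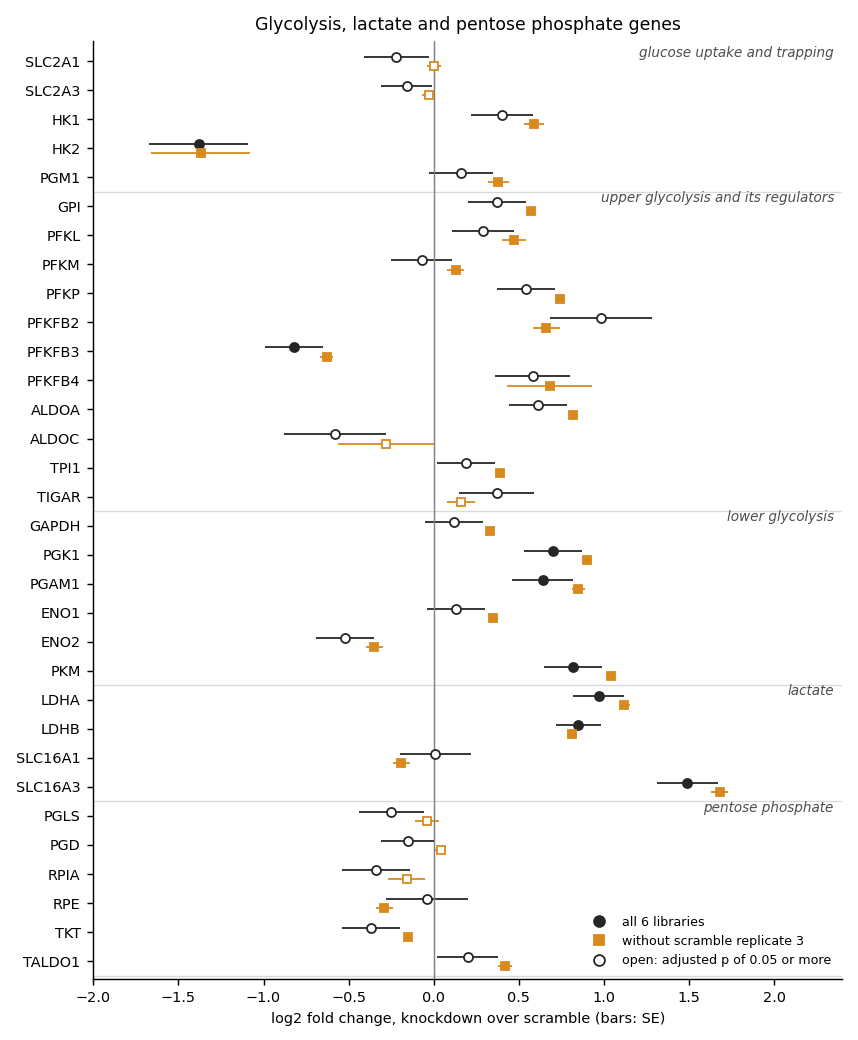
Log2 fold change of knockdown over scramble for the 32 members in pathway order, from all 6 libraries (black circles) and without scramble replicate 3 (orange squares), with bars for the SE; filled symbols have an edgeR adjusted p under 0.05. The largest positive value is that of SLC16A3 (1.49 and 1.68) and the lowest that of HK2 (-1.38 and -1.37).

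Summed over the 32 genes, the level was 25179, 25097 and 24948 CPM in the knockdown libraries, and 18317, 18190.1 and 25945 CPM in scramble replicates 1, 2 and 3. Scramble replicate 3 was thus above every knockdown library, and the other scramble libraries below. For 12 members each knockdown library was above each scramble library (37.5%, where 18.4% of all genes tested were so placed), and for 4 each was below (12.5%, where 18.6% were). Another 7 members had the knockdown libraries above scramble replicates 1 and 2 but below scramble replicate 3. These were PGM1, PFKM, TPI1, GAPDH, ENO1, PGD and TALDO1. The reverse order was found for SLC16A1 and RPE. How many of all genes were placed in these 2 ways was not counted.

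Glucose enters through the transporters GLUT1 and GLUT3, the products of SLC2A1 and SLC2A3, and hexokinase traps it as glucose 6-phosphate. Neither transporter gene changed. SLC2A1 measured 240.0, 238 and 251 CPM in knockdown libraries and 240.2, 246 and 364 CPM in scramble libraries (log2 fold change -0.22, SE 0.19, edgeR adjusted p = 0.523). Without scramble replicate 3 its log2 fold change was 0.00 (SE 0.04, adjusted p = 0.973). SLC2A3 averaged 204 ± 1.82 CPM in knockdown and 228 ± 33.6 CPM in scramble cells (SD, n = 3 each). Its log2 fold change was -0.16 on all 6 libraries, and -0.03 once scramble replicate 3 was left out (adjusted p = 0.593 and 0.566 by edgeR). HK2, the inducible hexokinase that binds mitochondria, measured 2.20, 1.10 and 1.69 CPM in knockdown libraries and 3.62, 5.01 and 4.36 CPM in scramble libraries. The groups did not overlap, at levels of 11 to 22 counts a library in knockdown cells (log2 fold change -1.38, SE 0.29, adjusted p = 0.0143 by edgeR). The HK2 call did not pass without knockdown replicate 2 (-1.16, adjusted p = 0.0719) or 3 (-1.39, adjusted p = 0.068). HK1, the housekeeping hexokinase, was well above HK2 per length, and measured 66.5, 61.6 and 66.3 CPM in knockdown libraries and 43.6, 42.6 and 61.5 CPM in scramble libraries. It passed by edgeR without scramble replicate 3 (0.59, adjusted p = 8.1e-08) and not with it (0.40, adjusted p = 0.215). PGM1, which interconverts glucose 1-phosphate and glucose 6-phosphate, followed the same course (0.38, adjusted p = 7.79e-06, and 0.16, adjusted p = 0.684, by edgeR).

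In upper glycolysis GPI makes fructose 6-phosphate, phosphofructokinase commits it to glycolysis, and aldolase and triose phosphate isomerase yield glyceraldehyde 3-phosphate. PFKFB3 was the 1 gene of these 11 called with all 6 libraries. It encodes a bifunctional enzyme that favours synthesis of fructose 2,6-bisphosphate, the main activator of phosphofructokinase. It fell to 251, 229.7 and 238 CPM in knockdown libraries, against 375, 363 and 526 CPM in scramble libraries (log2 fold change -0.82, SE 0.17, edgeR adjusted p = 0.0163). All knockdown libraries were below all scramble libraries, of which replicate 3 was the highest. Without scramble replicate 3 the value was -0.63, and the call did not pass without knockdown replicate 1, 2 or 3 (-0.85, -0.79 and -0.81, adjusted p = 0.0786, 0.101 and 0.0968 by edgeR).

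Its sister gene PFKFB2 pointed the other way, with 42.6, 38.3 and 43.3 CPM in knockdown libraries and 25.0, 27.3 and 10.8 CPM in scramble libraries. The groups did not overlap, and the low value of scramble replicate 3 widened the spread (log2 fold change 0.98, SE 0.30, edgeR adjusted p = 0.0692, and 0.66, adjusted p = 3.9e-07, without that library). DESeq2 and edgeR with the replicate block called it on all 6 libraries (adjusted p = 0.0105 and 0.012), and limma-voom did not (0.0646). With a correction for GC content and length edgeR called PFKFB2 as well (0.82, adjusted p = 0.00251). PFKFB4, the third gene of the family here, measured 3.40, 3.89 and 3.68 CPM in knockdown libraries and 2.23, 2.32 and 2.81 CPM in scramble libraries. It passed without scramble replicate 3 (0.68, edgeR adjusted p = 0.0296) and not with it (0.58, adjusted p = 0.134). TIGAR, which lowers fructose 2,6-bisphosphate and so sends glucose 6-phosphate towards the pentose phosphate branch, averaged 42.2 ± 3.16 CPM in knockdown and 32.7 ± 9.16 CPM in scramble cells (SD, n = 3 each) and passed in neither comparison (adjusted p = 0.349 and 0.103 by edgeR).

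PFKP, the platelet-type phosphofructokinase, measured 1039, 1007 and 992 CPM in knockdown libraries and 604, 607 and 880.5 CPM in scramble libraries. It did not pass with all 6 libraries (0.54, adjusted p = 0.0798 by edgeR) and did without scramble replicate 3 (0.74, adjusted p = 6.47e-15). ALDOA, the main aldolase, measured 1433, 1419.8 and 1410.4 CPM in knockdown libraries and 798, 812 and 1184 CPM in scramble libraries. Its adjusted p was 0.0521 by edgeR, with a log2 fold change of 0.61 (SE 0.17). It passed with DESeq2 (adjusted p = 0.0288), limma-voom (0.0484), RLE size factors (0.0461) and without scramble replicate 3 (0.82, adjusted p = 1.99e-16). With the correction for GC content and length ALDOA passed by edgeR too (0.73, adjusted p = 3.35e-05). ALDOA did not pass with upper-quartile scaling (adjusted p = 0.0766) or when any 1 of the libraries other than scramble replicate 3 was left out (0.154 to 0.188). For both genes each knockdown library was above each scramble library. GPI (0.37), PFKL (0.29) and TPI1 (0.19) did not pass with all 6 libraries. On the other 5 libraries they stood at 0.57, 0.47 and 0.39, with edgeR adjusted p-values of 7.82e-13, 3.72e-06 and 6.51e-10. The muscle-type phosphofructokinase gene PFKM was at -0.07 on all 6 libraries, and at 0.13 once scramble replicate 3 was left out (adjusted p = 0.854 and 0.0422 by edgeR). ALDOC, a brain-type aldolase, averaged 2.29 ± 0.202 CPM in knockdown and 3.44 ± 1.26 CPM in scramble cells (SD, n = 3 each) and passed neither with all 6 libraries (-0.58) nor without scramble replicate 3 (-0.28).

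Below glyceraldehyde 3-phosphate the pathway makes ATP at the steps of PGK1 and PKM. Between them PGAM1 and ENO1 convert 3-phosphoglycerate to phosphoenolpyruvate. PKM, a pyruvate kinase gene counted here over all its transcripts, rose to 2658, 2592 and 2596 CPM in knockdown libraries, against 1277, 1269 and 1899.6 CPM in scramble libraries (log2 fold change 0.82, SE 0.17, adjusted p = 0.016 by edgeR). PGK1 rose to 896, 883 and 859 CPM, against 475, 466 and 679 CPM in scramble libraries (0.70, SE 0.17, edgeR adjusted p = 0.028). PGAM1 rose to 349.7, 339 and 328 CPM, against 191, 186 and 274 CPM in scramble libraries (0.64, SE 0.18, edgeR adjusted p = 0.0478). For each of these 3 genes the groups did not overlap and scramble replicate 3 was the scramble library nearest to the knockdown libraries. Leaving it out gave log2 fold changes of 1.04, 0.90 and 0.85. None of the 3 calls passed when any of the other 5 libraries was left out. The adjusted p-values by edgeR were then 0.056 to 0.0752 for PKM, 0.0972 to 0.128 for PGK1 and 0.148 to 0.192 for PGAM1. PGAM1 also missed with upper-quartile scaling (0.61, adjusted p = 0.0694), and PGK1 with a correction for GC content and length (0.47, adjusted p = 0.169).

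GAPDH and ENO1, often used as loading controls, were the most abundant glycolytic genes below aldolase by FPKM (a level scaled for transcript length as well). GAPDH measured 4759.6, 4852 and 4795 CPM in knockdown libraries and 3807, 3818 and 5600.3 CPM in scramble libraries. ENO1 measured 2586, 2611 and 2537 CPM in knockdown libraries and 2026, 2019 and 3022 CPM in scramble libraries. In both genes the knockdown libraries lay between scramble replicate 3 and the other scramble libraries, and neither passed with all 6 libraries (0.12 and 0.13, edgeR adjusted p = 0.712 and 0.707). Without that library they stood at 0.33 and 0.35 (adjusted p = 4.08e-11 and 1.01e-10). ENO2, the neuronal enolase, was the 1 member of this stretch with a negative value, at 65.9, 64.8 and 62.7 CPM in knockdown libraries and 82.3, 82.2 and 113 CPM in scramble libraries. The groups did not overlap, and it passed without scramble replicate 3 (-0.35, adjusted p = 1.27e-05 by edgeR) but not with it (-0.52, adjusted p = 0.0903).

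Of the 4 lactate genes 3 rose, and these calls held in all 15 alternatives tried. LDHA, whose subunit predominates in glycolytic tissue, rose to 2622, 2597 and 2608 CPM in knockdown libraries, against 1228, 1170.4 and 1588 CPM in scramble libraries (log2 fold change 0.97, SE 0.15, edgeR adjusted p = 0.00317). LDHB, whose subunit predominates in heart, rose to 1403, 1387 and 1401 CPM, against 823, 772 and 724 CPM in scramble libraries (0.85, SE 0.13, edgeR adjusted p = 0.0026). SLC16A3, which encodes the low-affinity lactate exporter MCT4, rose to 137, 137 and 135 CPM, against 42.3, 42.9 and 60.8 CPM in scramble libraries (1.49, SE 0.18, edgeR adjusted p = 0.000986). For none of the 3 did a scramble library reach the knockdown range. SLC16A1, which encodes the ubiquitous transporter MCT1, measured 79.9, 82.2 and 75.8 CPM in knockdown libraries and 91.5, 89.2 and 54.9 CPM in scramble libraries. Scramble replicate 3 was here the lowest library. The log2 fold change was 0.01 (SE 0.21, edgeR adjusted p = 0.976) with it and -0.19 (adjusted p = 0.00585) without it.

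**Figure D2:**
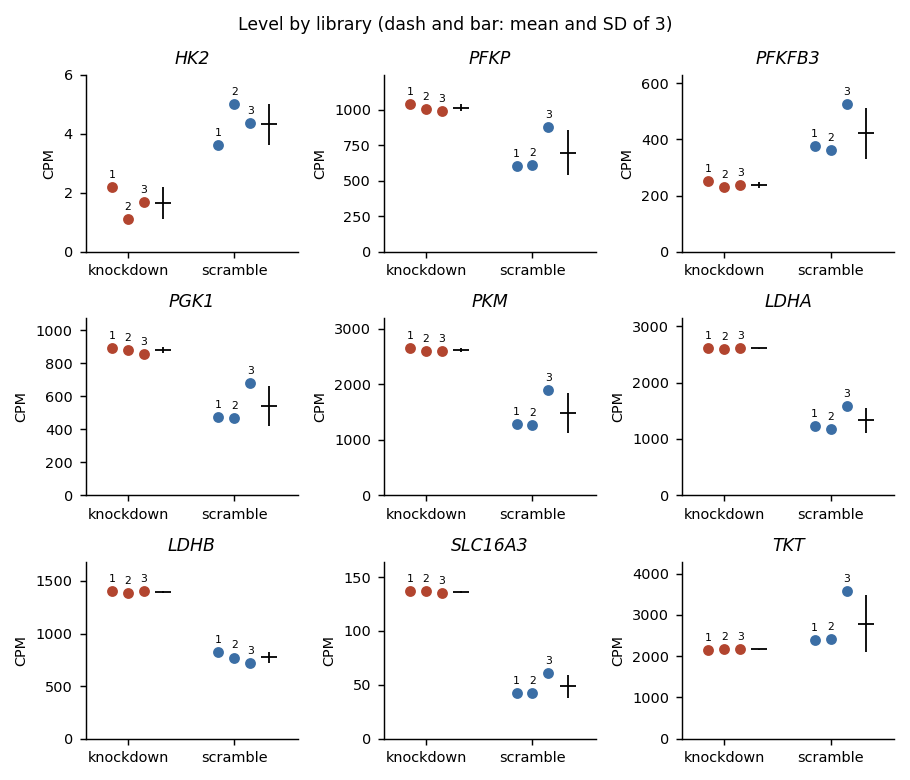
CPM of 9 members in each knockdown library (red, left) and each scramble library (blue, right), numbered by replicate, with the mean and SD of 3 libraries beside them. Knockdown libraries lie close together in each panel but that of HK2 (2.20, 1.10 and 1.69 CPM). Scramble replicate 3 is the highest scramble library for PFKP, PFKFB3, PGK1, PKM, LDHA, SLC16A3 and TKT and the lowest for LDHB.

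The promoters of the 4 called members with the largest absolute fold changes are printed here because 3 of them, all lactate genes, rose while the other fell. Each sequence is the RefSeq reference of GRCh38.p14, from 250 bases before to 50 bases after the annotated start, 5′ to 3′ on the strand of the gene. They are chr17:82228185-82228484 (+) for SLC16A3, chr2:74833877-74834176 (+) for HK2, chr11:18394313-18394612 (+) for LDHA and chr12:21657793-21658092 (-) for LDHB. Capitals mark ACGTG, a form of the hypoxia response element core, on either strand. The other form of that core, GCGTG, was not searched or marked. CACGTG, the E-box, contains ACGTG on both strands.
SLC16A3: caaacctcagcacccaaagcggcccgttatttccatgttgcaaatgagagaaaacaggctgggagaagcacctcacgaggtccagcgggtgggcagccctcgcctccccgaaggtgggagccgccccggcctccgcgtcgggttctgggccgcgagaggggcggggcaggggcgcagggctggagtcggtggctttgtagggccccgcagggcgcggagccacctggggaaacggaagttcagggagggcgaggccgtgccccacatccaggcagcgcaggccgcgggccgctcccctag
HK2: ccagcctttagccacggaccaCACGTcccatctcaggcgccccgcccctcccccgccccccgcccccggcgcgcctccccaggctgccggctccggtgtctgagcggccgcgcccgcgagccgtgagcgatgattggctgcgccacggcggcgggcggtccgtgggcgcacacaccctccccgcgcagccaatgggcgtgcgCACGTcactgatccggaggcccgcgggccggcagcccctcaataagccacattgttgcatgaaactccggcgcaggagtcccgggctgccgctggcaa
LDHA: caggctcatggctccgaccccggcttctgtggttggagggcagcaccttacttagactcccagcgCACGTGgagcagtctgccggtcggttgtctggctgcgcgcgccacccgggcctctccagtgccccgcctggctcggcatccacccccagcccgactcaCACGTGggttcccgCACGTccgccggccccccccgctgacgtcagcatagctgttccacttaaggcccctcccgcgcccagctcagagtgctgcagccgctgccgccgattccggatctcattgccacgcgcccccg
LDHB: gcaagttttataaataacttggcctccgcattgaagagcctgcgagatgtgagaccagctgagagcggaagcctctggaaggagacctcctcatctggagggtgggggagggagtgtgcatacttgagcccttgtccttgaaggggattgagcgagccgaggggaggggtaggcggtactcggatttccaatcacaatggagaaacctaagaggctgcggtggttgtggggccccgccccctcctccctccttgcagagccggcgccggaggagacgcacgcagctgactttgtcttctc
ACGTG occurred in 3 separate stretches of the LDHA window, 2 of them full E-boxes, and in 2 stretches of the HK2 window. It was in no stretch of the SLC16A3 and LDHB windows. ACGTG was thus present in 1 window of a gene that rose and 1 of a gene that fell. Promoters in this table were matched for 29 members, and not for SLC2A3, PFKFB2 and SLC16A1. ACGTG was in 10 of the 29 (34.5%), beside 21.4% of all 35116 promoters of the same length. Members had 1 promoter each, whereas the 35116 were not limited to 1 a gene or to genes tested here. The shares thus come from unlike sets. CACGTG was in 3 (10.3%, beside 7.26%), and TGACNNNGC, the core of the antioxidant response element that NRF2 binds, in 6 (20.7%, beside 13.3%), both strands searched. The median GC content was 69.7% in the windows of members and 58.7% in all promoters, and ACGTG and CACGTG both hold a CG pair. A match is no evidence of binding, and a window without one says nothing about the factor.

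The 6 pentose phosphate genes held no call with all 6 libraries by edgeR, and none had an unadjusted p under 0.05. DESeq2 and limma-voom called none either. With the GC and length correction on all 6 libraries, edgeR called TKT lower (-0.26, adjusted p = 0.00897) and TALDO1 higher (0.32, adjusted p = 0.00425). Both calls held with the replicate block added (adjusted p = 0.0417 and 0.0239). Of all genes, 18.7% were called lower and 15.4% higher with the correction alone. Transketolase and transaldolase link the branch back to glycolysis. TKT, the transketolase gene, measured 2160.2, 2163 and 2172 CPM in knockdown libraries and 2382, 2414 and 3575 CPM in scramble libraries. Its groups did not overlap, and the scramble mean was carried up by replicate 3 (log2 fold change -0.37, edgeR adjusted p = 0.225, and -0.15, adjusted p = 2.79e-05, without that library). PGD, the NADPH-yielding 6-phosphogluconate dehydrogenase gene, averaged 1832 ± 8.36 CPM in knockdown and 2039 ± 448 CPM in scramble cells (SD, n = 3 each). It passed in neither comparison (adjusted p = 0.626 and 0.212 by edgeR). TALDO1, the transaldolase gene, measured 403, 397 and 408 CPM in knockdown libraries and 306, 298 and 446 CPM in scramble libraries. It passed without scramble replicate 3 (0.42, edgeR adjusted p = 1.55e-09) and not with it (0.20, adjusted p = 0.543). RPE, which interconverts pentose phosphates, measured 67.6, 67.6 and 67.1 CPM in knockdown libraries and 81.5, 83.1 and 42.9 CPM in scramble libraries. Its value was -0.04 with all 6 libraries (edgeR adjusted p = 0.95) and -0.29 without scramble replicate 3 (adjusted p = 0.000117). PGLS, which hydrolyses 6-phosphogluconolactone, averaged 53.9 ± 3.85 CPM in knockdown and 64.0 ± 14.9 CPM in scramble cells, and RPIA, the ribose 5-phosphate isomerase gene, 17.6 ± 2.04 and 22.4 ± 4.67 CPM (SD, n = 3 each). Both passed in neither comparison. Summed over the 6 genes, the level was 4519.9, 4536 and 4560.1 CPM in knockdown libraries and 4644, 4633 and 6729 CPM in scramble libraries. Lower glycolysis, with 6 genes as well, summed to 11315, 11343 and 11179 CPM in knockdown libraries and 7859, 7841 and 11587 CPM in scramble libraries.

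Levels of different genes were compared as the deposited FPKM. GAPDH was the highest member in both groups, with 3335 ± 31.6 FPKM in knockdown and 3169.6 ± 589 FPKM in scramble cells (SD, n = 3 each). In knockdown cells LDHA, at 1146 FPKM, and ENO1, at 1142 ± 14.2 FPKM, came next and differed by less than their spread. In scramble cells LDHA was the fifth, at 605 FPKM. TKT was the fifth in knockdown cells and the second in scramble cells, at 962 and 1277 FPKM. In scramble cells LDHA (605 ± 74.4), LDHB and ALDOA (582 FPKM) differed by less than their spread, so their order there is not resolved. HK2 was the lowest member, at 0.227 ± 0.0751 FPKM in knockdown and 0.610 ± 0.108 FPKM in scramble cells.

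Ratios of isozymes within a library were compared for 12 pairs, not all independent, since some share a gene. Some hold a gene of low level (HK2, PFKFB4, ALDOC or PFKFB2), the highest group mean being 6.04 FPKM, of PFKFB2 in knockdown cells. Of single genes tested, 18.4% had all knockdown libraries above all scramble libraries and 18.6% had all below. The share without overlap was not counted for ratios of other gene pairs. In 9 pairs the groups did not overlap, each with p = 0.1 by an exact 2-sided permutation test over libraries, the smallest that 3 against 3 allows, and 0.133 after Benjamini-Hochberg adjustment over the pairs; none can therefore pass 0.05. PFKP over PFKM was 12.5, 12.2 and 12.6 in knockdown libraries and 7.88, 8.46 and 8.18 in scramble libraries. The log2 ratio differed by 0.61, and by 0.61 again when scramble replicate 3 was left out, whose ratio lay between those of the other scramble libraries. ENO2 over ENO1 was 0.0232, 0.0226 and 0.0225 in knockdown libraries and 0.0369, 0.0371 and 0.0339 in scramble libraries, a log2 difference of -0.66. SLC16A3 over SLC16A1 was 3.28, 3.19 and 3.41 in knockdown libraries and 0.884, 0.920 and 2.12 in scramble libraries. Its log2 difference was 1.46, or 1.87 without scramble replicate 3. MCT4 message thus made up 76.7% ± 0.596 of the summed FPKM of both transporters in knockdown and 54.2% ± 11.8 in scramble cells (SD, n = 3 each).

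LDHA over LDHB behaved differently. It was 1.11 in each knockdown library and 0.886, 0.900 and 1.30 in scramble libraries, so the groups overlapped (log2 difference 0.13, exact permutation p = 0.4, and 0.31 without scramble replicate 3). SLC2A1 over SLC2A3 overlapped as well, with a log2 difference of -0.05. PFKFB3 remained the main gene of its family, at 88.0% ± 0.345 of the family's FPKM in knockdown and 95.7% ± 1.85 in scramble cells. PFKFB2 took 10.3% ± 0.371 in knockdown and 3.55% ± 1.79 in scramble cells (SD, n = 3 each).

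**Figure D3:**
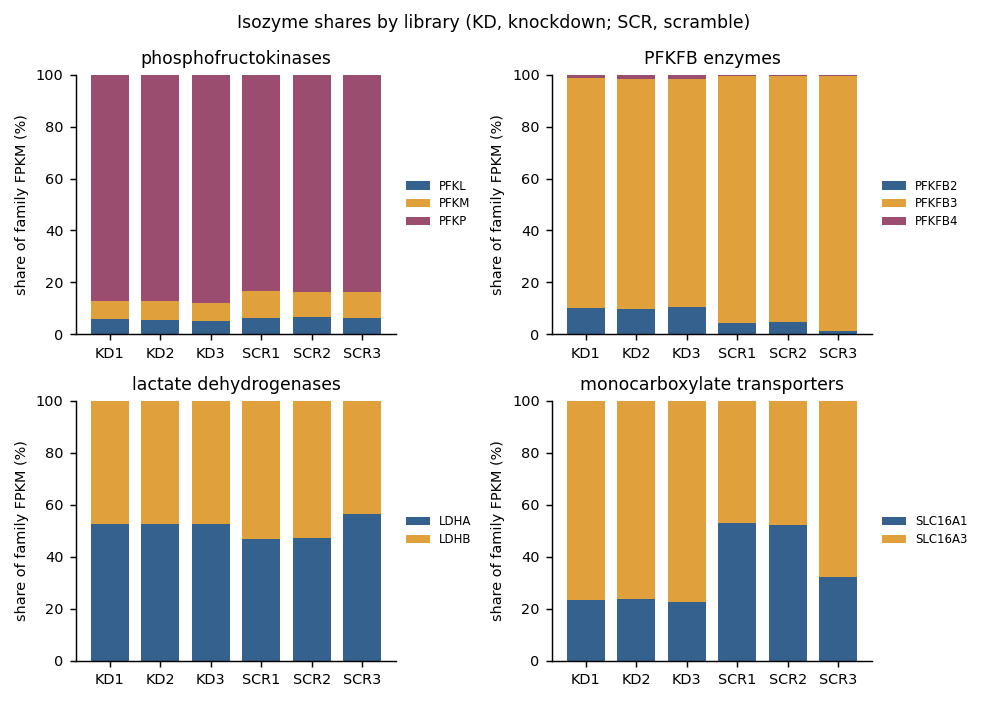
Share of each isozyme in the summed FPKM of its family, in percent, for each knockdown (KD) and scramble (SCR) library. The SLC16A3 share is 76.2% to 77.3% in knockdown libraries and 46.9%, 47.9% and 67.9% in scramble replicates 1, 2 and 3, and the PFKP share is 87.2% to 87.8% in knockdown and 83.2% to 83.6% in scramble libraries.

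The deposited mean transcript length of a gene moves when the estimated mix of its transcripts moves. For 29 of 32 members it varied by under 1% over the 6 libraries. PFKFB2 varied most, by 11.4%, at 6534, 6634 and 6739 bases in knockdown libraries and 6601, 6503 and 5997 bases in scramble libraries, with scramble replicate 3 the shortest. ALDOA was at 1615, 1617 and 1614 bases in knockdown and 1629, 1629 and 1630 bases in scramble libraries, which did not overlap. TKT was likewise shorter, at 2203, 2202 and 2199 bases in knockdown and 2212, 2213 and 2210 bases in scramble libraries. In whole bases, knockdown lengths of SLC16A3 (2069, 2068 and 2070 against 2072, 2072 and 2071), PGM1 and TPI1 also lay below the scramble range. Over the 6 libraries ALDOA varied by 0.941% and TKT by 0.627%. Such separation in length was not counted over all genes, so nothing particular to these members is read from it.

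Other genes of these pathways were taken from lists. Of 31 further genes of glycolysis, gluconeogenesis and lactate, 20 were tested, and 2 rose and 2 fell by edgeR, where 5.89% of all genes were called higher and 5.64% lower. With scramble replicate 3 left out, 5 were higher and 4 lower, where 25.7% and 23.8% of all genes were. The same shares apply to the counts of the lists that follow. BSG, which encodes basigin, the chaperone that brings MCT1 and MCT4 to the cell surface, rose to 1669, 1643 and 1635 CPM, against 573, 596 and 855 CPM in scramble libraries (log2 fold change 1.29, edgeR adjusted p = 0.00163). SLC16A7, which encodes the high-affinity transporter MCT2, rose to 28.0, 25.3 and 21.4 CPM, against 4.18, 5.38 and 3.97 CPM in scramble libraries (2.46, adjusted p = 9.01e-05 by edgeR). HKDC1, a hexokinase with low activity, fell to 150.1, 141 and 141 CPM, against 235, 235 and 321 CPM in scramble libraries (-0.87, edgeR adjusted p = 0.00984). At 37.6 ± 1.35 FPKM in knockdown and 71.4 ± 9.96 FPKM in scramble cells (SD, n = 3 each), it was above HK1 (17.4 ± 0.762 and 13.7 ± 2.31 FPKM) in both groups. PCK2, the mitochondrial enzyme that makes phosphoenolpyruvate, fell as well (-0.72, adjusted p = 0.0278 by edgeR). None of these 4 genes had overlapping groups. When scramble replicate 3 was left out, the log2 fold changes of BSG, SLC16A7, HKDC1 and PCK2 were 1.5, 2.38, -0.71 and -0.53, and all 4 passed. BSG and SLC16A7 passed in all 15 alternatives, whereas HKDC1 and PCK2 did not pass when knockdown replicate 1, 2 or 3 was left out (adjusted p = 0.0595 to 0.0748 and 0.133 to 0.14).

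Of 7 further pentose phosphate genes tested, 0 were called with all 6 libraries by edgeR and 0 by limma-voom. DESeq2 called 1 (PRPS2, a ribose phosphate diphosphokinase gene named after its value was seen). An unadjusted p under 0.05 by edgeR was found for 3, and the share of all genes under that limit was not counted. Leaving out scramble replicate 3 gave 3 higher and 1 lower, and the GC and length correction gave 2 higher and 1 lower. Of 11 glycogen genes tested, 2 rose and 1 fell, and leaving out scramble replicate 3 gave 7 higher and 2 lower. PGM2L1, which makes glucose 1,6-bisphosphate, a cofactor of phosphoglucomutase, rose to 166, 168 and 164 CPM, against 50.4, 52.5 and 23.4 CPM in scramble libraries (1.98, edgeR adjusted p = 0.00208). The branching enzyme gene GBE1 also rose (1.19, adjusted p = 0.00566), and the brain-type glycogen phosphorylase gene PYGB fell (-0.88, adjusted p = 0.0105 by edgeR). TXNIP, a target of the glucose-sensing factor MondoA whose protein restrains glucose uptake, fell to 27.3, 23.7 and 26.0 CPM, against 65.6, 62.2 and 76.5 CPM in scramble libraries (-1.41, edgeR adjusted p = 0.000741). It was the 1 of 4 MondoA genes called. Leaving out scramble replicate 3 gave 1 higher and 2 lower. The values of PGM2L1, GBE1, PYGB and TXNIP were then 1.69, 1.00, -0.68 and -1.32, and all 4 passed. Of 9 HIF pathway genes tested 1 rose and 1 fell (3 and 4 without scramble replicate 3), the oxygen sensor gene EGLN1 (0.79, adjusted p = 0.048 by edgeR) and the peptide hormone gene ADM (-0.85, adjusted p = 0.0143). Both passed without scramble replicate 3 (0.57 and -0.68). PYGB, EGLN1 and ADM did not pass without knockdown replicate 1, 2 or 3 (adjusted p = 0.0624 to 0.0698, 0.142 to 0.177 and 0.0816 to 0.1), and EGLN1 not without scramble replicate 1 or 2 either (0.0551 and 0.0625) or with RLE size factors (0.0542). HIF1A measured 203 ± 3.54 CPM in knockdown and 232 ± 88.3 CPM in scramble cells (SD, n = 3 each) and did not pass with all 6 libraries (-0.19, edgeR adjusted p = 0.723). Scramble replicate 3, at 129.7 CPM, was its lowest library, and the other scramble libraries, at 287 and 278 CPM, were the highest. HIF1A was called lower without scramble replicate 3 (-0.48, adjusted p = 6.67e-10 by edgeR) and with the GC and length correction (-0.35, adjusted p = 0.00695).

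The place of scramble replicate 3 varied with the GC content of transcripts. For 27 members its level was above the mean of scramble replicates 1 and 2, and for 23 of them by 0.4 to 0.6 on the log2 scale. Of 7 members with a GC content under 45%, 5 were below that mean, PFKFB2 (-1.23), RPE (-0.93), TIGAR (-0.73), SLC16A1 (-0.71) and LDHB (-0.14). The other two, PGK1 (43.3% GC) and LDHA (43.0%), were above it by 0.53 and 0.41, where the GC bin of all tested genes with a median of 43.1% had a median shift of -0.60. Over the 32 members the shift and GC content correlated at r = 0.65 (Spearman 0.59), and over 14231 tested genes with a GC value at r = 0.71 (Spearman 0.74); these values describe 1 library set against 2, and the points share those libraries. With counts corrected for GC content and length, 16 of 32 members were higher, beside 15.4% of all genes, and 4 (12.5%) were lower, beside 18.7%. Of the 8 members called with all 6 libraries, 7 were called the same way after this correction, PGK1 being the exception. HK1, GPI, PFKL, PFKP, PFKFB2, PFKFB4, ALDOA, TPI1, GAPDH, ENO1 and TALDO1 were then called higher besides, and ENO2 and TKT lower.

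**Figure D4:**
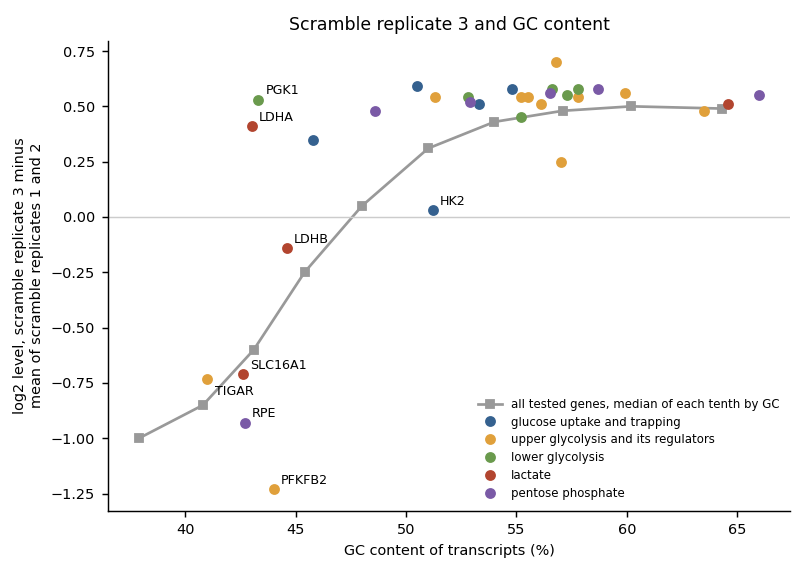
Log2 level in scramble replicate 3 minus the mean of scramble replicates 1 and 2, against the GC content of transcripts in percent, for the 32 members (points coloured by step) and as the median of each of 10 equal bins of all tested genes by GC content (grey squares). For 23 members the value is between 0.4 and 0.6, and PFKFB2 is lowest at -1.23.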

How the data were processed

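RNA libraries were made with a TruSeq kit and oligo-dT beads, per the labels' protocols. The deposited files hold, per gene and library, RSEM expected counts (estimated counts, which need not be whole), FPKM values scaled by the authors for length and depth, and a mean transcript length, per the file headers. The submitters' processing notes name RSEM, Bowtie2, BWA and hg19, without roles or versions. Genes at 0 are not listed and were taken as 0 counts. A count of 0 allows up to 3 counts, or 0.29 CPM, by counting error only.

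Expected counts were rounded and fitted for all genes with edgeR 4.0.16 in R 4.3.3 (filterByExpr with a minimum count of 10 and total of 15, TMM, glmQLFit, glmQLFTest). A gene was called at an adjusted p under 0.05 (Benjamini-Hochberg, over all genes). SEs are the fold change over the root of F. Symbols came from RefSeq gene IDs (20727 matched, 97 not, with 0.147% of counts). GC content came from GENCODE transcripts. Expected counts of genes with processed pseudogenes, such as GAPDH, PGK1 and LDHA, are uncertain where reads are shared. The comparison was tested on simulated data for 14812 genes with all 6 libraries, where 4.69% of genes changed 1.5-fold, 51.4% changed 2-fold and 90.9% changed 4-fold were recovered. Without scramble replicate 3, on 15029 genes, the shares were 68.2%, 88.3% and 95.9%. Among unchanged genes, 1 was called with all 6 libraries and 15 without scramble replicate 3. The simulated spread was drawn separately for each library and held no GC-linked shift of 1 library, so recovery in these data may differ. Replicates within a group, other than scramble replicate 3, differed by more than sampling noise (chi-square over its degrees of freedom 1.61 to 1.95). Alternatives used DESeq2 1.42.0, limma 3.58.1, other scalings and filters, a replicate block, a GC and length correction (splines with 5 degrees of freedom) and each library left out. Named genes are C19orf12, the 32 members, and up to 4 called genes of each further list; HIF1A and the cell markers were named besides. Members and lists were chosen with earlier results of these data known. Protein sequences were not used here.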

Additional observations from a re-analysis of the deposited data

How the results depend on the processing

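With all 6 libraries, 6 members were higher and 2 lower. RLE size factors, upper-quartile scaling, both filter alternatives, the replicate block, DESeq2 and limma-voom gave 5 to 8 higher and 2 lower. The correction for GC content and length gave 16 and 4, and with the replicate block 14 and 5. Leaving out 1 library gave 3 to 19 higher and 0 to 6 lower; the 19 and 6 are those without scramble replicate 3, and each of the other 5 libraries left out gave 3 higher. Without scramble replicate 3, the alternatives, chosen after seeing the data, gave 17 to 19 higher and 5 or 6 lower.

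Scaling moved the median log2 fold change of all genes from 0.018 to 0.014 (RLE) and -0.016 (upper-quartile). The share of higher calls among all calls was 51.1% with all 6 libraries, and 61.6%, 62.7% and 63.1% without knockdown replicate 1, 2 or 3. Calls over all genes numbered 1708, and 729 to 7439 with 1 library left out. With 1 library left out, the C19orf12 value ranged from -1.08 to -0.73, that of SLC2A1 from -0.34 to 0.00, PFKM from -0.19 to 0.13, PGD from -0.26 to 0.04, SLC16A1 from -0.19 to 0.13 and RPE from -0.29 to 0.11.

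Signs turned for these 5 members: for the first 4 without scramble replicate 3 (0.00, 0.13, 0.04 and -0.19), for SLC16A1 also with upper-quartile scaling (-0.02), with the GC and length correction (-0.17, and -0.17 with the replicate block) and without knockdown replicate 2 (-0.02), and for RPE with the replicate block (0.02), limma-voom (0.03) and without scramble replicate 1 (0.09) or 2 (0.11). The cause was not tested. Adding 1 FPKM before the log ratio moved HK2 over HK1 to -0.73 (from -1.83) and PFKFB4 over PFKFB3 to 1.08 (from 1.38), since HK2 and PFKFB4 are near or under 1 FPKM. 

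Without scramble replicate 3, the further glycolysis list had 5 higher and 4 lower, the pentose phosphate list 3 and 1, the glycogen list 7 and 2, the MondoA list 1 and 2 and the HIF list 3 and 4. With the GC and length correction the lower calls of the glycolysis list were 4, and the others were 2 and 1 (pentose phosphate), 7 and 2 (glycogen) and 2 and 3 (HIF).

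Same-numbered knockdown and scramble libraries did not deviate together (correlations of deviations from -0.024 to -0.018, beside -0.051 to 0.064 for other numbers). Deviations were taken from the group mean, which scramble replicate 3 pulled in its group. The correlations therefore cannot decide whether the numbers pair the libraries. The replicate block gave 8 members higher and 2 lower and 1654 calls over all genes, against 1708 without it.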
